A study of Mus musculus with 10 samples.

Results

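The liver of female C57BL/6J mice after 12 weeks of a diet rich in both fat and cholesterol is described here across genes, from 1 array of the 5 that cover this strain and of the 10 in the series. It was chosen on measured values, as the fed C57BL/6J array that stood off from the 3 others (weeks 1, 4 and 21) towards the array taken before the diet, with the bile acid genes Cyp7a1 and Cyp8b1, the sulfotransferase gene Sult3a1 and the uptake carrier gene Slco1a1 as its markers. Its differences from those arrays are therefore given as a description, with no test. The groups are named B6 for C57BL/6J and D2 for DBA/2J, both inbred strains for which the labels name no transgene, deletion or other agent than the diet. Each strain had 1 array before the diet (week 0) and 1 array each at weeks 1, 4, 12 and 21 of feeding. Each array held equal amounts of liver RNA from 5 mice of 1 strain and 1 week, pooled before hybridisation to an Affymetrix Mouse Genome 430 2.0 array. A pool gives no spread between mice, 1 array per week gives no spread between pools, and no array without the diet was taken after week 0, so age rose together with weeks on the diet. Neither the hour at which livers were taken nor whether the mice had eaten is given in the sources used here.

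The liver turns cholesterol into bile acids, and Cyp7a1 and Cyp8b1 encode the hydroxylases that set, respectively, the rate of the classical pathway and the share of cholic acid, which aids the uptake of dietary cholesterol from the gut. Bile acids returning from the gut lower the transcription of both genes through the receptor FXR and its target SHP. Diets rich in cholesterol also lower the cholesterol synthesis genes that SREBP2 drives, and prolonged feeding can bring macrophages, matrix and acute phase transcripts into the liver. C57BL/6J is widely used as a strain prone to fatty liver and fatty streaks on such diets.

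The promoters of Cyp8b1 and Sult3a1 are shown because these 2 genes had the widest differences of all genes kept between the week 12 array and the mean of the other fed arrays. The other fed levels of Cyp8b1, and those of Sult3a1 at weeks 1 and 4, lay near background, so the sizes of these differences are uncertain. The 250 bases before the start of Cyp8b1 (RefSeq, GRCm38.p6, chr9:121916306-121916555, minus strand) and of Sult3a1 (chr10:33857472-33857721, plus strand) read, 5′ to 3′, as follows, with the capitals marking a match to CAAAGTCCA, a form of the site bound by the liver factor HNF4A.
Cyp8b1 promoter: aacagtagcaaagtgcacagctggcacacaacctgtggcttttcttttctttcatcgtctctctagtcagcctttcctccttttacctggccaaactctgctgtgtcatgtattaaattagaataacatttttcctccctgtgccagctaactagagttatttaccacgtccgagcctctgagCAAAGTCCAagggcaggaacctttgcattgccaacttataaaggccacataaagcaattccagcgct
Sult3a1 promoter: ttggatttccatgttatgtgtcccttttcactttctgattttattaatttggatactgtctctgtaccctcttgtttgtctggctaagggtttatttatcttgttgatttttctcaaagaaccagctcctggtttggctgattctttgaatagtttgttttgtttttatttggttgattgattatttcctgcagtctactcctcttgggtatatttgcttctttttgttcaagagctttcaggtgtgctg
The Sult3a1 window is that of the 1 start in the promoter table, which lies inside the span that RefSeq gives the gene (chr10:33851020-33879475), so it is not the region before the outermost start. The match in Cyp8b1 begins 67 bases before the start and reads on the strand of the gene. The motif was chosen after these letters had been seen, both strands were searched, and 126 of 32851 promoters of this length (0.384%) held it. Neither Sult3a1 nor Slco1a1 held a match, and none of the 3 promoters held TCAAGGNCA, a form of the site of NR5A2, which was present in 456 promoters (1.39%). Cyp7a1 was not matched in the promoter table. A match or its absence describes letters in this window only.

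All levels below are log2 of the quantile normalised signal plus a pseudocount of 1.05, and differences are on that scale, so that 1 is a 2-fold difference and low signals are compressed. The differences of week 12 are taken from the mean of weeks 1, 4 and 21. For dim genes their size is uncertain and depends on the pseudocount. Levels are compared within a gene, not between genes.

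Cyp7a1 stood at its level from before the diet at week 12. Its level was 9.67 before the diet, 5.98, 7.46 and 8.15 in the week 1, 4 and 21 arrays, and 9.73 in the week 12 array. Week 12 thus lay above every other fed array, 2.53 above their mean of 7.20 ± 1.11 (SD, n = 3 arrays), and a further probe set for the gene gave 2.31. Cyp8b1, the sterol hydroxylase that leads to cholic acid, stood at 10.92 before the diet, at 3.36, 3.63 and 2.63 at weeks 1, 4 and 21, and at 8.36 at week 12. The 3 other fed levels lay close together near background, and week 12 lay 5.15 above their mean while 2.56 short of week 0. With a pseudocount of 16, or with signals floored at 16, the difference of Cyp8b1 was 3.81 or 4.35, since the other fed signals are dim.

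Sult3a1, a sulfotransferase gene, was at 9.67, 0.79, 2.60, 7.09 and 4.50 at weeks 0, 1, 4, 12 and 21. Its week 12 level was the highest of the fed arrays, 4.46 above the mean of the others (2.63 ± 1.86, SD, n = 3 arrays), and it remained 2.57 below week 0. The levels of Sult3a1 at weeks 1 and 4 lay near background, under the filter level of 3.74, so the size of that difference is uncertain. Slco1a1, a carrier that takes organic anions into hepatocytes, was at 8.70, 6.86, 1.39, 6.28 and 3.47. Here week 12 was not the highest fed array, since week 1 was higher, and it lay inside the range of the others. Of the 4 markers, Cyp7a1 was thus at its level from before the diet at week 12, Cyp8b1 and Sult3a1 lay between that level and all other fed arrays, and Slco1a1 lay between it and the mean of the other fed arrays only.

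**Figure D1:**
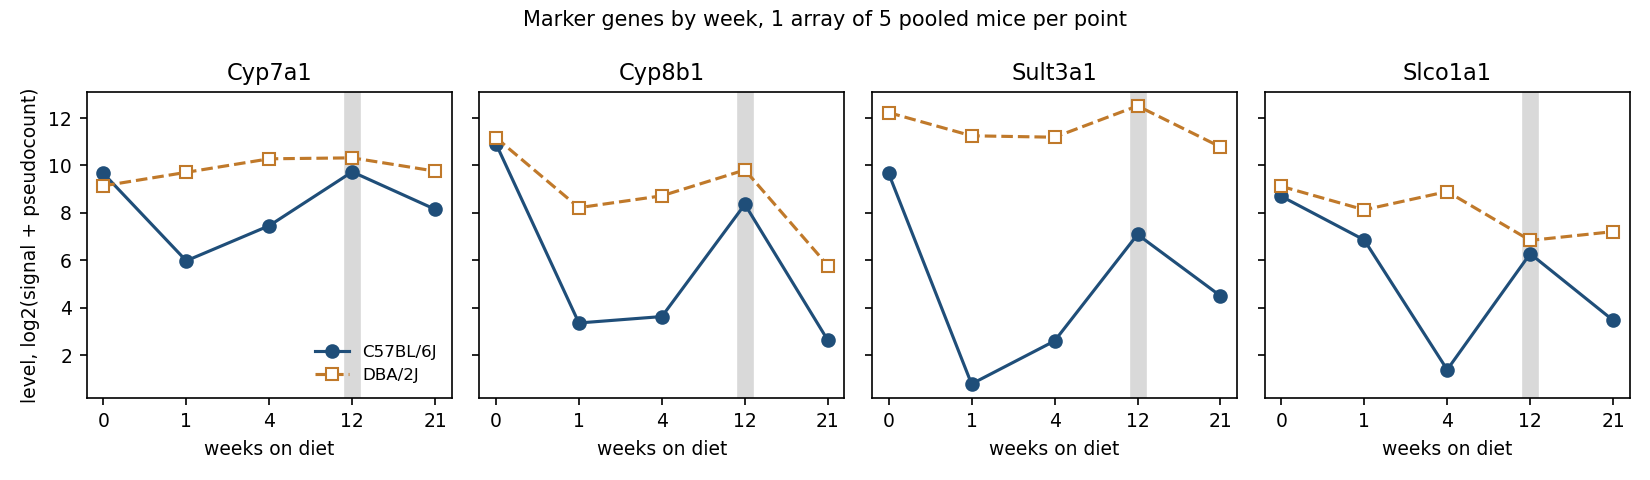
Levels of Cyp7a1, Cyp8b1, Sult3a1 and Slco1a1, as log2(signal + pseudocount), by weeks on the diet in C57BL/6J (filled circles) and DBA/2J (open squares), 1 array per point and no error bars. The grey band marks week 12, where C57BL/6J stood at 9.73, 8.36, 7.09 and 6.28.

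Across genes, 579 of the 11061 genes kept (5.23%) differed by at least 2-fold from the mean of the other fed arrays and lay outside their range in the week 12 array. Of these, 142 (1.28%) were higher and 437 (3.95%) were lower, and on the deposited scale, without quantile normalisation, the split was 70 to 734. Of the 142 higher genes, 78 lay closer to week 0 than the mean of the other fed arrays did, and so did 313 of the 437 lower genes. Not all of the difference was therefore a move towards week 0. Without the week 21 array, 230 genes were higher. Counted in the same way, 277 genes stood apart in the week 1 array, 626 in that of week 4 and 243 in that of week 21, so week 4 stood apart from its fellow arrays in more genes than week 12 did. Where genes apart at week 12 had further probe sets above the filter, 232 of 253 had the same sign (91.7%) and 120 (47.4%) were also past 2-fold.

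To ask how far genes displaced on the diet lay from week 0 at week 12, genes were called displaced where weeks 1, 4 and 21 each differed from week 0 by at least 2-fold in 1 direction. There were 377 such genes, 274 above week 0 (2.48% of genes) and 103 below it (0.931%). The share of the displacement that remained at week 12 was the difference of week 12 from week 0 over that of the mean of the other fed arrays, so that 0% stands for week 0 and 100% for the other fed arrays. Its median was 57.9%, with 54.9% for the genes displaced upward and 67.9% for those displaced downward. At week 12, 76 of the 377 genes were at week 0 (a share between -25% and 25%), 8 had gone past it, 145 lay part way (25% to 75%), 120 kept their displacement (75% to 125%) and 28 lay further out. Genes at or past week 0 made up 22.3%, 66 of those displaced upward and 18 of those displaced downward. Without the week 1 or the week 21 array, 626 or 628 genes were displaced and 47.9% or 48.1% of the displacement remained.

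With each other fed B6 array treated as week 12 was, the median share remaining was 83.5% for week 1, 112% for week 4 and 87.1% for week 21, and 7.09%, 1.37% and 3.97% of genes were at or past week 0. Week 12 thus held the lowest remaining share of the 4 fed arrays, also under the 8 other settings for which all 4 were computed. In the D2 strain, genes displaced in the same way numbered 175 upward (1.58%) and 99 downward (0.895%), and week 12 kept 90.2% of the displacement with 11.3% of genes at or past week 0. D2 weeks 1, 4 and 21 kept 85.4%, 95.5% and 96.1%. The fed arrays of a strain share 1 week 0 array, and the difference between the strains was not tested. Of the displaced genes, 61 were displaced in the same direction in both strains, 16.2% of those of B6 and 22.3% of those of D2.

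**Figure D2:**
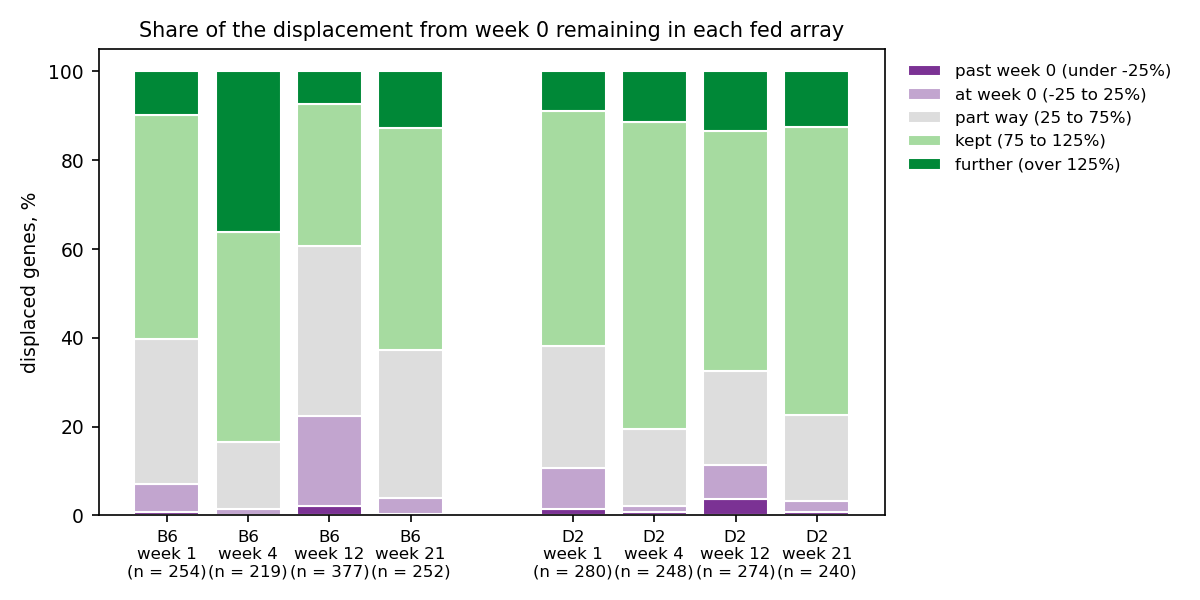
Share of displaced genes, in %, by how much of the displacement from week 0 remained, for each fed array of both strains held out in turn. B6 week 12 had the largest share at or past week 0 (22.3%) of the 8 arrays, and B6 week 4 the largest share further out.

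Over all genes week 12 lay about as near to week 0 as week 21 did, and weeks 1 and 4 lay further from it. The median absolute difference from week 0 was 0.269 at week 12, beside 0.287, 0.353 and 0.271 at weeks 1, 4 and 21. Week 12 had 693 genes at least 2-fold from week 0 (6.27%), against 978 (8.84%), 1551 (14.0%) and 867 (7.84%) in the arrays of weeks 1, 4 and 21. The nearest of the other 9 arrays was B6 week 21, at a median absolute difference of 0.226, and week 0 lay at 0.269. The low remaining share at week 12 describes the displaced genes, not all genes.

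Among the 16 bile acid synthesis genes kept, Cyp7a1 and Cyp8b1 were the 2 that stood apart, and the median difference of the list was 0.12 beside 0.01 for all genes. Cyp39a1, an oxysterol hydroxylase, did not share this pattern, with levels of 10.17, 8.81, 7.52, 8.35 and 9.01 at weeks 0, 1, 4, 12 and 21 and 105% of its displacement kept. Cyp27a1, the mitochondrial sterol hydroxylase of the alternative pathway, was at 11.44, 10.72, 10.60, 11.26 and 11.10. Of 10 regulator genes, 7 lay above all other fed arrays and 1 below, against 28.1% and 27.3% of all genes, and none was 2-fold apart (1 without week 21). Nr1h4, which encodes FXR, was at 9.39, 8.54, 8.58, 9.66 and 9.23, so that week 12 was the highest of the 5 arrays. Nr0b2, which encodes SHP, the repressor of Cyp7a1, ran the other way, at 7.74 before the diet, at 9.58, 8.83 and 9.0 at weeks 1, 4 and 21 and at 8.52 at week 12. That is the lowest fed level of Nr0b2, 0.61 below the mean of the others, with 56.3% of its displacement kept.

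Of the 9 uptake carriers, 1 lay above all other fed arrays and 1 below, against 28.1% and 27.3% of all genes. These shares of all genes apply to each such B6 count below. The median difference of the carriers was 0.38, and none was apart (1 without week 1 or without week 21). Slc10a1, the main sodium-dependent bile acid carrier, was at 11.77 at week 12, between week 21 (11.81) and weeks 1 and 4 (11.15 and 10.93), with 11.86 at week 0. Of 11 exporter genes, 6 lay below all other fed arrays and 3 above, against 27.3% and 28.1% of all genes. Their median difference was -0.30, and none was 2-fold apart (1 without week 21). Abcb11, the bile salt export pump, was at 10.26, 11.16, 10.81, 9.92 and 10.36, and its week 12 level was the lowest of the 5 arrays. The 3 exporters displaced upward all kept their displacement: Abcb1a, a multidrug exporter, at 75.4%, Abcg5, a sterol exporter and target of LXR, at 79.1%, and Abcc4, which exports bile acids into blood, at 119.5%.

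Of the 4 sulfotransferases displaced on the diet, 1 was at week 0, 2 lay part way and 1 lay further out at week 12. Sult2a8, a bile acid sulfotransferase, was at 11.53 before the diet, at 9.58, 9.62 and 8.85 at weeks 1, 4 and 21, and at 11.38 at week 12, so 6.9% of its displacement remained. Of the 8 sulfotransferases, 4 lay above all other fed arrays and none below, and 2 (Sult3a1 and Sult2a8) were apart. Sult1c2 went the other way from a return, at 4.51, 6.20, 5.65, 7.05 and 6.32, with 165% of its displacement at week 12. Mup3 was at 12.49, 10.73, 10.13, 12.47 and 9.64, Mup5 at 7.15, 4.42, 4.31, 7.32 and 4.68, and Mup10 at 7.42, 5.38, 3.82, 6.86 and 3.69. For each of these 3 urinary protein genes, carriers of pheromones made in the liver, weeks 0 and 12 formed the high pair and the other fed arrays lay below both. Mup genes are near-identical copies, so a probe set can read several of them, and the mean of all its probe sets put the difference of Mup3 at 1.34 instead of 2.30.

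Other genes with wide gaps, or at week 0 after displacement, were of varied function. Lepr, the leptin receptor, was at 6.62, 5.70, 5.84, 7.90 and 6.25, above all other arrays at week 12. The mean of all its probe sets put the difference of Lepr at 0.91 instead of 1.97. Pcp4l1, a small calmodulin-binding protein gene, was at 7.10, 5.40, 4.10, 7.45 and 5.84. Ptgds, a prostaglandin D synthase, was at 6.53, 8.58, 7.13, 4.45 and 9.84, and Ltb, lymphotoxin beta, at 3.68, 4.85, 6.99, 2.14 and 5.53. For Ptgds and Ltb the week 12 level was the lowest of the 5 arrays. Ltb was near background at weeks 0 and 12, so the order of these 2 levels is uncertain. With a pseudocount of 16, or a floor at 16, its difference was -1.91 or -1.76 instead of -3.65. Ubd, a ubiquitin-like modifier induced by cytokines, was at 3.47, 6.02, 10.10, 4.15 and 5.51, and Prom1, a progenitor cell marker, at 4.76, 8.50, 7.74, 5.35 and 6.73. Cyp2c54, a P450 with close relatives and a member of the drug metabolism list, was at 11.61, 10.06, 9.31, 11.26 and 9.56, and 17.8% of its displacement remained.

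Genes known to be higher in female than in male mouse liver lay mostly above the other fed weeks. Of 12, 9 were above all other fed arrays and none below, 5 were apart, and the median difference was 0.94. The 5 include Sult3a1, by which the array was chosen. Without the week 4 array 3 were apart, and without week 21, 9. Abcd2, a peroxisomal fatty acid transporter, was at 7.26, 6.38, 5.75, 7.66 and 6.76. Cux2, a female-specific repressor, was at 5.02, 5.50, 5.14, 7.23 and 7.10, so weeks 12 and 21 were both high and week 0 was not. Hao2, a hydroxy acid oxidase, was at 6.37, 7.01, 6.73, 7.90 and 6.03. Week 12 exceeded week 0 in these 3 genes, and Cyp3a44, a female-predominant P450, stayed at 4.76 beside 7.68 at week 0. Of the 10 genes with male bias, 3 lay above all other fed arrays and 3 below, against 28.1% and 27.3% of all genes. None was apart higher, and C6, a complement gene, was apart and lower (6.40 at week 12, 7.24 to 7.51 in the other fed arrays). The list also named Mup1 and Mup20, which were not kept. Their relatives Mup3, Mup5 and Mup10, outside the list, were apart and higher. Without week 1, 2 of the 10 were apart higher and none lower, and without week 4 none was apart. All mice were female per the labels.

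**Figure D3:**
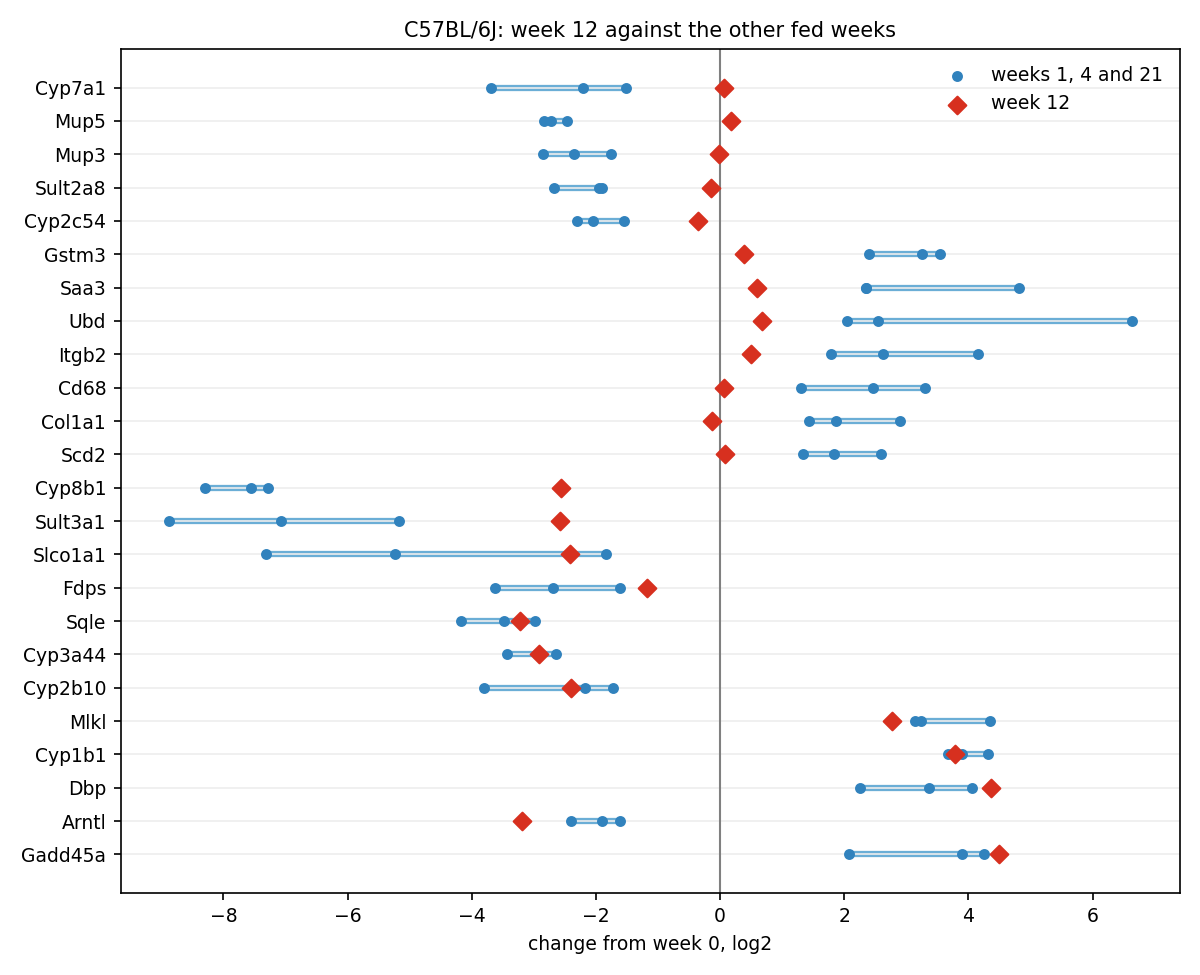
Change from week 0, in log2 units, for 24 genes in the fed C57BL/6J arrays, with blue points for weeks 1, 4 and 21, a bar over their range and a red diamond for week 12. Week 12 lay close to 0 for Cyp7a1, Mup3 and Cd68, part of the way for Cyp8b1 and Sult3a1, and within or beyond the other fed weeks for Sqle, Cyp1b1 and Dbp.

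Macrophage markers lay near their level from before the diet. All but 1 of the 25 markers kept lay below all other fed arrays at week 12 (24 of 25), 23 were apart, and the median difference was -1.75. Relative to week 0, the median of the list stood at 2.80 and 1.65 for weeks 4 and 21 and at 0.07 for week 12, with week 1 between weeks 12 and 21. The summed signal of the 25 markers was 4600 before the diet, 10100, 28700 and 15900 at weeks 1, 4 and 21, and 5000 at week 12. No marker kept was at 0, the dimmest before the diet was Mmp12 at 2.61, and Trem2 was left out by the filter. In such bulk samples, fewer cells of a type and less RNA per cell cannot be told apart.

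Cd68, a lysosomal protein of macrophages, was at 5.83, 7.14, 9.13, 5.90 and 8.30 at weeks 0, 1, 4, 12 and 21. The resident Kupffer cell genes Marco and Timd4 lay below their level from before the diet at week 12, with Marco at 6.03, 7.75, 10.16, 5.04 and 6.82 and Timd4 at 5.15, 6.52, 6.84, 3.69 and 5.05. Clec4f, the marker most particular to Kupffer cells, was also lowest at week 12, at 8.63, 9.48, 9.06, 8.35 and 9.21, but by less than 2-fold. Some genes found in lipid-laden macrophages stayed above week 0. Lgals3, which encodes galectin-3, was at 5.49, 7.62, 10.36, 7.01 and 9.64. Mmp12, an elastase, was at 2.61, 4.78, 6.51, 4.47 and 7.41, and Gpnmb, a transmembrane glycoprotein, at 3.11, 5.04, 8.74, 6.51 and 9.56, which put its week 12 level inside the range of the other fed arrays with 72.9% of the displacement kept. Of the 15 macrophage markers displaced upward, 9 were at or past week 0, 6 lay part way and none kept its displacement.

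Antigen presentation and myeloid genes were mostly lower, while lymphocyte lists had smaller medians. Of 5 T and NK cell markers 1 was apart and lower (2 without week 21), with a median of -0.21, and of 5 B and plasma cell markers none was (2 without week 1), with a median of -0.23. All 5 MHC class II genes kept were apart and lower, with a median of -1.60, such as H2-Ab1 (7.11, 8.44, 10.85, 7.53 and 8.63) and the invariant chain Cd74 (8.18, 9.87, 12.11, 9.05 and 10.25). Week 4 was the highest array for both, and without it 2 of the 5 were apart. The leukocyte integrin Itgb2 was at 5.66, 7.44, 9.81, 6.16 and 8.29. Neutrophil and monocyte genes were apart in 4 of 4, such as S100a8, a calprotectin subunit (3.32, 4.41, 8.16, 4.16 and 5.38), but in 0 of 4 without week 4. These were the 4 of 12 members that passed a filter on the mean of all arrays. Their summed signal was 67.2 at week 0 and 685 at week 4, so week 4 helped them pass. Without a filter 6 of 9 were apart, and with a pseudocount of 16, 2 of 4. Of 10 chemokine genes 4 were apart, among them Ccl5, which recruits T cells (5.18, 6.13, 10.21, 4.50 and 6.56), and Ccl6, made by myeloid cells (6.84, 7.51, 9.24, 6.20 and 8.57). Without week 4, 3 of the 10 were apart and the list median was -0.44 instead of -1.46. The 10 were those of 16 members that passed the filter, and their summed signal was 431 at week 0 and 6200 at week 4. Without a filter 7 of 15 chemokine genes were apart. Cxcl1, a neutrophil chemoattractant, kept 85.3% of its displacement. Interferon-induced genes had 2 of 13 apart, Gbp2 and Ifit2, none without week 4 and 7 without week 21. The summed macrophage signal given above was highest at week 4, then at weeks 21 and 1, and its part in these lists was not tested.

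Acute phase genes, which hepatocytes secrete during inflammation, lay on both sides of week 0 at week 12. Of 27 genes, 17 lay below all other fed arrays, 2 above and 7 were apart, with a median of -0.38. Lcn2, an iron-siderophore binder, was at 8.55, 9.27, 12.15, 6.29 and 10.17, so the week 12 level was 4.24 below the mean of the other fed arrays and also 2.27 below week 0. Saa1, Saa2 and Saa3, the serum amyloid genes, were at 8.66, 6.99 and 6.95 at week 12 beside 9.0, 7.23 and 6.36 at week 0. Their other fed levels were 10.90 to 12.55 for Saa1, 9.04 to 12.13 for Saa2 and 8.71 to 11.17 for Saa3, so no overlap with week 12 was left. Saa1 and Saa2 are close copies and their probe sets may read both. Orm2, an orosomucoid, was at 8.29, 8.94, 11.14, 6.84 and 8.38.

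Matrix genes were lower at week 12 mainly against week 4. Of the 25 stellate cell and matrix genes, 7 were apart and lower, but 1 of 25 without the week 4 array. Col1a1, the main chain of fibrillar collagen, was at 4.69, 6.12, 7.59, 4.56 and 6.56, the only member of the list displaced upward, and -6.4% of its displacement remained. Col3a1 was at 7.98, 8.88, 10.32, 7.88 and 8.66 and Vim, vimentin, at 7.24, 7.74, 9.93, 7.46 and 8.74. In all 3 genes weeks 0 and 12 lay together at the low end. Endothelial markers had a median of 0.03 and hepatocyte markers of 0.00, and the summed signal of the 11 hepatocyte markers stayed between 52700 and 54900 over the 5 arrays. Albumin (Alb) was at 12.54 at week 12 and 12.54 to 12.64 in the other B6 arrays, as the labelled tissue would have it. Quantile normalisation compresses the brightest signals, so that sum is a coarse measure.

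**Figure D4:**
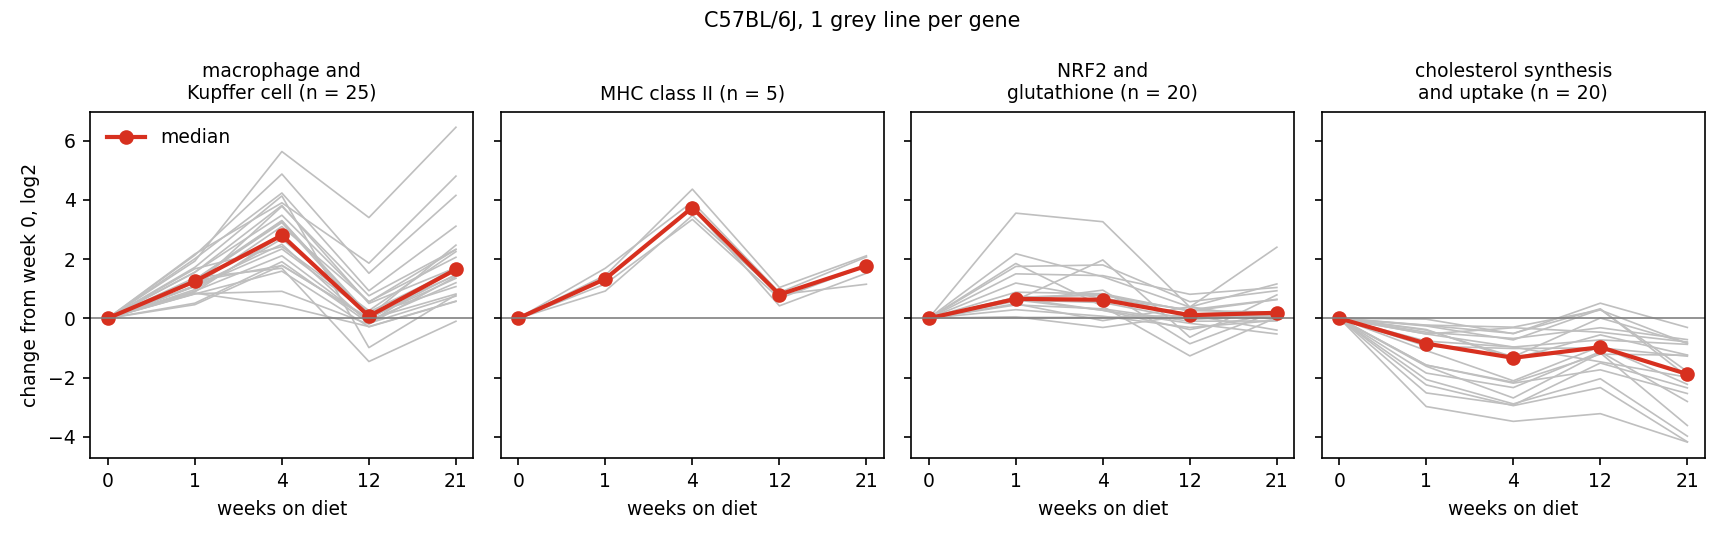
Change from week 0, in log2 units, of each gene (grey) and of the list median (red) by weeks on the diet in C57BL/6J, for 4 gene lists. The macrophage median came to 0.07 at week 12 after 2.80 at week 4, the MHC class II median to 0.80, and the cholesterol median stayed at -0.98.

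Glutathione and NRF2 genes, which answer oxidants and electrophiles, were lower as a group. Of 20 genes, 15 lay below all other fed arrays, 2 above, and 5 were apart, with a median of -0.51. Gstm3, a glutathione transferase, was at 8.84 before the diet, at 12.39, 12.10 and 11.24 at weeks 1, 4 and 21 and at 9.22 at week 12. Gsta4, which conjugates products of lipid peroxidation, was at 8.94, 11.12, 10.34, 9.32 and 10.10. Hmox1, heme oxygenase, was at 6.63, 7.24, 8.60, 5.99 and 7.42, and Srxn1, sulfiredoxin, at 6.96, 7.54, 7.91, 6.10 and 7.20. For Hmox1 and Srxn1 week 12 was the lowest of the 5 arrays. The Gstm genes are near-identical, and the Gstm3 probe set can bind more than 1 transcript.

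DNA replication genes separated week 1 from the later arrays more than week 12 from the rest. Of 19 genes, 5 were apart and lower, with a median of -1.15, but without week 1 the count was 1 and without week 21 it was 13. Mcm5, a helicase subunit, was at 3.38, 8.10, 5.90, 4.38 and 3.79, and Mki67, the Ki-67 antigen, at 3.55, 6.55, 5.82, 4.11 and 3.88. Week 12 lay near week 21 for both. Cdkn1a, the cell cycle inhibitor p21, was at 9.59, 8.61, 7.35, 5.85 and 8.78, so its week 12 level was 3.74 below week 0 and outside all other arrays. Gadd45a, a stress-induced gene, kept 132% of its displacement, at 1.80, 5.69, 6.05, 6.29 and 3.88. Its level before the diet was near background, so the size of that displacement is uncertain.

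Cholesterol synthesis and uptake genes lay mostly above the other fed arrays and below week 0. The median of the list from week 0 was -0.98 at week 12, inside the -1.88 to -0.86 of the other fed arrays. Of 20 genes, 12 lay above all other fed arrays and none below, 5 were apart (Fdps, Insig1, Stard4, Msmo1 and Tm7sf2), and the median difference was 0.76. Without week 21 only 1 was apart, and without week 1, 9. The mean of all its probe sets put the difference of Msmo1 at 0.11 instead of 1.21. Fdps, farnesyl diphosphate synthase, was at 9.31, 7.69, 6.62, 8.14 and 5.69, so 44.1% of its displacement remained. Insig1, which retains the SREBP complex in the endoplasmic reticulum, was at 8.94, 8.70, 8.43, 9.26 and 6.97. Sqle, squalene epoxidase, lay inside the range of the other fed arrays, at 7.98, 5.0, 4.50, 4.76 and 3.80, and Hmgcs1, an early enzyme of the pathway, was at 10.62, 9.68, 9.60, 9.62 and 9.34. Of the 9 members displaced downward, none was at week 0, 7 lay part way and 2 (Sqle and Nsdhl) kept their displacement.

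Of 11 LXR targets, 5 lay below all other fed arrays and 2 above, 3 were apart and lower (Scd2, Abcg1 and Pltp), and the median difference was -0.33. Scd2, a stearoyl-CoA desaturase found outside hepatocytes as well, was at 5.32, 6.66, 7.92, 5.40 and 7.16, and Abcg1, a sterol exporter rich in macrophages, at 6.18, 7.15, 7.95, 6.33 and 7.42. Both lay at their week 0 level, while Srebf1, the LXR target that drives lipogenesis in hepatocytes, was at 8.02, 10.73, 10.73, 10.59 and 9.24 with 116% of its displacement kept. Of 22 fatty acid and triglyceride synthesis genes 12 lay above all other fed arrays and none below. Acacb, a carboxylase that restrains fat oxidation, was at 7.59, 5.99, 4.80, 7.49 and 6.52, and Elovl6, a fatty acid elongase, at 7.0, 9.28, 8.47, 9.61 and 8.22. Week 12 was thus at its week 0 level for Acacb and furthest from it for Elovl6. The mean of all its probe sets put the difference of Acacb at 0.83 instead of 1.72.

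Of the 14 clock genes kept, 5 were displaced, and none of these was at or part way to week 0 at week 12. Dbp, a clock output gene, kept 135% of its displacement, Per3 169%, Arntl 161%, Nr1d1 116% and Cry1 85.9%. With the mean of all its probe sets, Per3 differed from the other fed arrays by 0.41 instead of 1.10. For Arntl, a pseudocount of 16 gave -0.76 instead of -1.21. Dbp was at 5.58, 7.84, 9.64, 9.94 and 8.94, and Arntl, which encodes the clock activator BMAL1, at 7.19, 5.57, 4.79, 4.00 and 5.28. Week 12 was the extreme of the 5 arrays for both, although a dimmer Arntl probe set gave a difference of 0.45 against -1.21. These genes cycle over the day in mouse liver, and week 0 and the fed weeks differed in them. Glycogen genes lay on both sides, with Ppp1r3g, a glycogen-targeting subunit, at 5.68, 5.80, 5.74, 8.49 and 3.90 and the related Ppp1r3c at 9.65, 9.67, 9.03, 7.50 and 9.46. The part of collection hour or feeding in any result was not tested.

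Other genes kept their displacement. Cyp1b1, a P450 found mostly outside the liver, was at 0.64 before the diet and at 4.32, 4.53, 4.42 and 4.95 at weeks 1, 4, 12 and 21. Mlkl, the effector of necroptosis, was at 2.33, 5.57, 6.68, 5.10 and 5.47. Cyp2b10, a target of the receptor CAR, was at 10.94, 9.22, 7.13, 8.54 and 8.76, and 93.4% of its displacement remained. The week 12 levels of Cyp1b1 and Cyp2b10 lay inside the range of the other fed arrays. That of Mlkl was the lowest of the fed arrays but 2.77 above week 0. Before the diet, Cyp1b1 and Mlkl lay near background, under the filter level of 3.74, so the size of their displacement is uncertain.

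**Figure D5:**
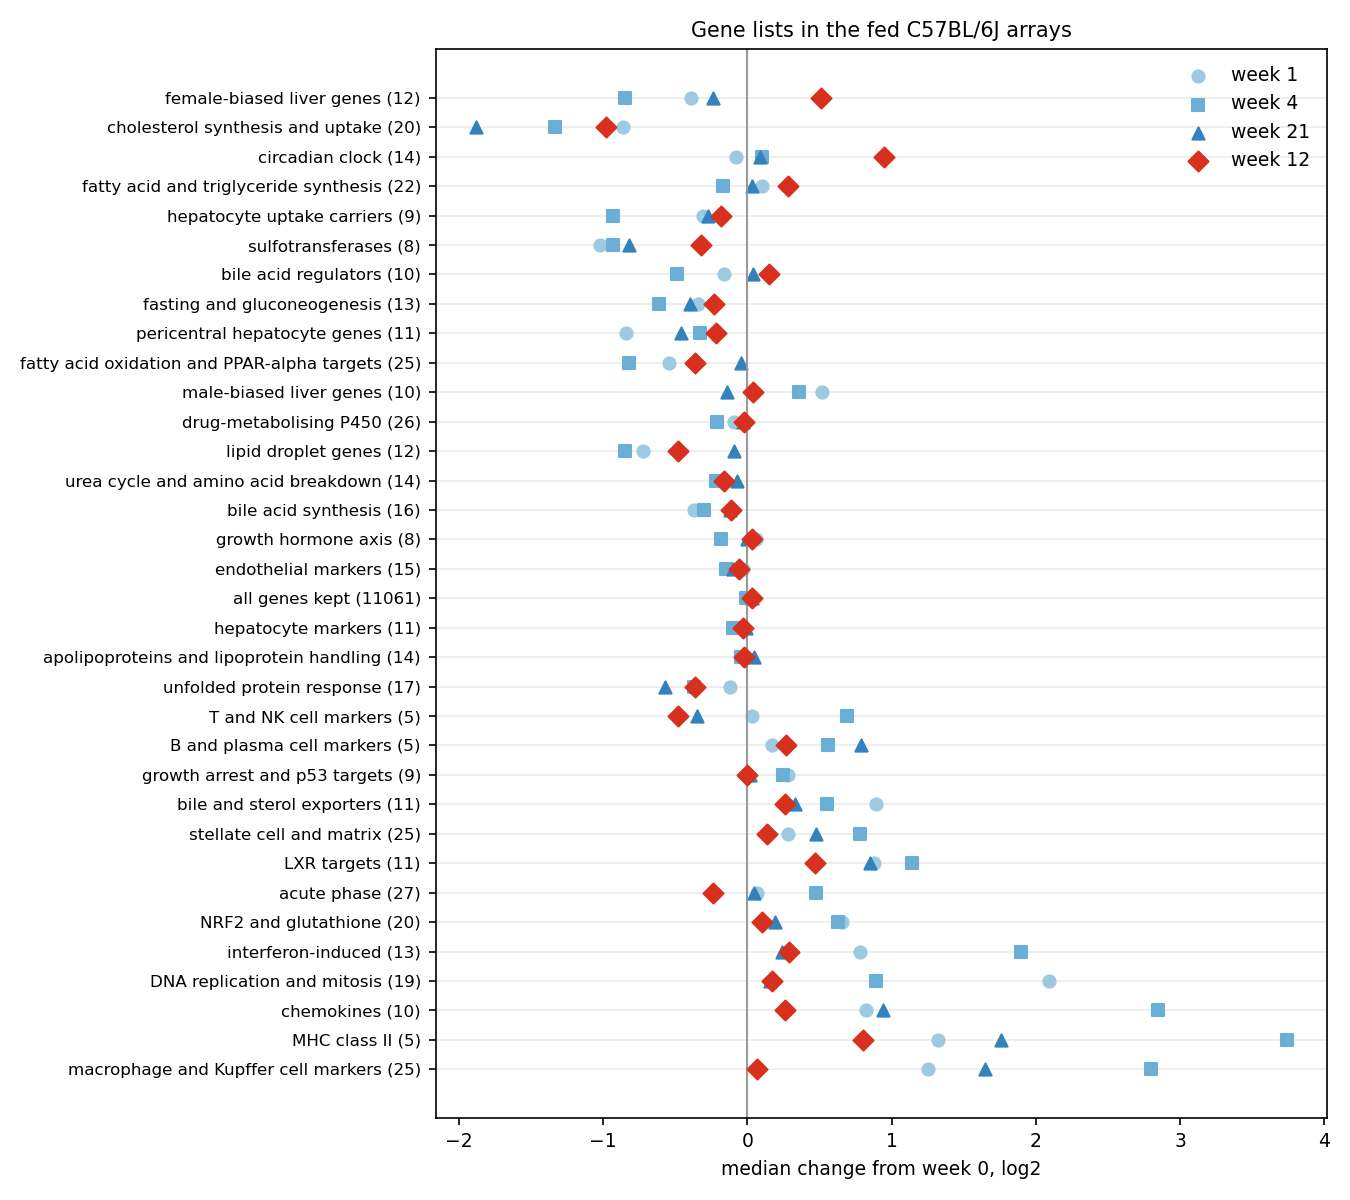
Median change from week 0, in log2 units, of each gene list with at least 5 genes kept (number in brackets) in the fed C57BL/6J arrays, sorted by how far week 12 (red diamonds) lay from weeks 1, 4 and 21. Week 12 lay near 0 for macrophage markers and beyond the other fed weeks for clock genes.

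The D2 arrays, which had no part in choosing the B6 array, allow a test of whether week 12 differed from weeks 1, 4 and 21 in that strain. The fit took 1 array against 3 and assumed that the lone array varies like the other fed weeks of both strains, which leaves 4 residual degrees of freedom. In limma with Benjamini-Hochberg adjustment over 11061 genes, 7 genes passed (0.0633%), 6 higher (0.0542%) and 1 lower (0.00904%), and 585 (5.29%) had an unadjusted p under 0.05. None of the 4 marker genes passed. Cyp8b1 was at 8.22, 8.72, 9.81 and 5.78 at weeks 1, 4, 12 and 21 in D2, a difference of 2.24 ± 0.98 (SE, adjusted p = 0.937). Sult3a1 was at 11.25, 11.19, 12.51 and 10.78 (1.43 ± 1.10, adjusted p = 1), and Cyp7a1 at 9.71, 10.28, 10.32 and 9.76 (0.40 ± 0.68, adjusted p = 1). Week 12 was the highest fed array for all 3 in D2 as well, while Slco1a1, at 8.13, 8.90, 6.84 and 7.21, was lowest at week 12 (-1.25 ± 1.69, adjusted p = 1).

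Of the gene lists, cholesterol synthesis and uptake had the highest median difference in D2 at week 12. Of the 20 cholesterol genes 5 passed and were higher, all 20 lay above the other fed D2 arrays, and the median difference was 2.68 beside 0.76 in B6. Hmgcs1 was at 8.38, 8.64, 11.45 and 8.45 at weeks 1, 4, 12 and 21 (2.96 ± 0.18, adjusted p = 0.00238), and Sqle at 4.58, 4.36, 9.27 and 3.99 (4.96 ± 0.45, adjusted p = 0.0133). Msmo1 (4.43), Nsdhl (3.12), Tm7sf2 (2.07) and Acss2, an acetyl-CoA synthetase of the same SREBP programme (1.85), also passed, and Usp49, a deubiquitinase gene, was lower (-2.91). Without D2 week 4 or without D2 week 21, 1 gene passed. Both strains thus had cholesterol genes above the other fed arrays at week 12. Msmo1 and Tm7sf2, which passed in D2, were apart in B6 too. For Msmo1 this rested on the probe set read. With the mean of all its probe sets, its difference was 0.11 in B6 instead of 1.21, and 3.6 in D2. Sqle, Hmgcs1 and Nsdhl also passed in D2 but lay inside the range of the other fed arrays in B6. Of the 25 macrophage markers none passed in D2 in limma, 1 had an unadjusted p under 0.05, and 12 lay below all other fed arrays. Other lists also lay to 1 side in D2 at week 12. Of 12 female-biased genes, 9 lay above all other fed D2 arrays and 0 below, as in B6. Of 22 fatty acid and triglyceride synthesis genes, 15 lay above and 3 below. Of 11 exporters 8 lay below and 1 above, of 11 LXR targets 8 and 0, and of 20 NRF2 and glutathione genes 12 and 2. The like shares over all genes were not counted in D2. The difference between the strains was not tested.

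By transcripts that differ between the strains, the week 12 array lay with the other B6 arrays. Of 14 such genes, 13 lay nearer to the other B6 arrays than to the D2 arrays, such as Ildr2 at 9.38 (8.63 to 9.77 in B6, 3.80 to 4.94 in D2), and Klrd1 did not. The 14 genes were chosen with earlier results of these data known, so the count is not an independent check of the strain. The trimmed mean signal of the week 12 array, 74.5, lay within the 55.8 to 88.6 of the strain. Its spiked controls were the brightest of the 10 arrays (646, others 477 to 584). Its actin 3′ to 5′ ratio was the highest (2.41, others 1.78 to 2.37), with B6 week 21 at 2.25 and B6 weeks 0, 1 and 4 at 1.87 or less. Its Gapdh 3′ to 5′ ratio, 0.7, lay between the 0.675 of D2 week 12 and the 0.73 of B6 week 4. The part of RNA quality in the week 12 values was not tested.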

How the data were processed

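Liver RNA pools of 5 mice were measured on 10 arrays. The deposited values are signal intensity on a linear scale, computed by the authors with GCOS per the submitters' processing notes; their scaling is not given in the sources used here. Of 45101 probe sets, 64 controls were left out. Arrays were quantile normalised in limma 3.58.1 (R 4.3.3) and expressed as log2(signal + 1.05), where 1.05 is the 10th percentile of all deposited intensities and compresses dim signals. Probe sets with 1 symbol (34945) were used, those with several (932) or none (9160) were not. Symbols were updated by gene identifier from RefSeq GRCm38.p6. Each gene was read by the probe set whose mean was highest, and kept above the 50th percentile (3.74), which left 11061 of 18193 genes. The number of arrays limits the precision.

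The B6 contrast is described without a test. The D2 contrast was fitted with lmFit and eBayes (trend) and adjusted by Benjamini-Hochberg at 0.05, after a check on simulated data. Here weeks stand in for replicates, so p-values measure the spread between weeks. Named genes were the markers, the largest gaps, the displaced genes nearest to or furthest from week 0, up to 4 members per list, the strain genes and the genes called in D2. Some further list members (among them Cyp39a1, Cyp27a1, Cyp3a44, Clec4f, Mmp12, Gsta4, Cxcl1 and Gpnmb) were chosen after their values were seen. The members and all 40 gene lists were chosen with earlier results of these data known. Of 624 list entries, 561 had a named probe set and 496 were kept. Alternatives were other pseudocounts, scalings, filters, probe set rules, fold thresholds and variance models, and each array left out. Figures were drawn with matplotlib 3.10.9.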

Additional observations from a re-analysis of the deposited data

Results flagged for a closer look

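Among the 4 fed arrays of a strain, 1 array stood off from the 3 others where its gap to the nearest of them took up more of the whole range than Dixon's 95% value for 4 arrays allows. Of 268 such checks, 19 exceeded it. The checks covered the lists and the genes named in the text, some of them named for a wide gap at week 12 or a call in D2. The count can therefore not be set against chance. In C57BL/6J, week 12 was the outlying high array for Mup5 (gap 0.875 of the range) and for the median of the sulfotransferases (0.886). It was the outlying low array for Usp49 (0.904), whose range there was small, and for the median level of the endothelial markers (0.888), although the median of the members' own differences was 0.03. Week 4 was outlying and high for the chemokine Cxcl1 (0.83), and week 21 outlying and low for Srebf1 (0.905).

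In DBA/2J, week 12 was the outlying high array for the cholesterol synthesis genes Sqle (0.889), Msmo1 (0.903), Tm7sf2 (0.861), Hmgcs1 (0.915) and Nsdhl (0.896). It was outlying and high for the medians of the cholesterol genes (0.89), the female-biased genes (0.864) and the acute phase genes (0.93), although the members' own differences had a median of -0.08 for the acute phase genes. It was outlying and low for Usp49 (0.896) and Col3a1 (0.839). Week 4 was the low array for Cd74 (0.893), and week 21 the high array for Ccl5 (0.895) and G0s2 (0.955).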

How the results depend on the processing

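The median share remaining at week 12 (57.9%) stayed between 47.9% and 72.3% in the 12 alternatives, all within the spread of the other fed arrays. Counts moved more, and apart from the thresholds and numbers of genes that a setting itself changes, the cause was not tested. With a pseudocount of 16, 279 genes were apart (65 higher, 214 lower), 157 were displaced with 28.7% at or past week 0, week 12 lay 0.221 from week 0 with 269 genes 2-fold away, and 13 genes passed in D2. With a floor at 16, 251 were displaced and 28.7% were at or past week 0. At the deposited scale 70 genes were higher and 734 lower, 1241 were displaced (15.0% at or past week 0), week 12 lay 0.473 from week 0 with 1275 genes 2-fold away, and 20 genes passed in D2; there the median of all genes lay at -0.20 for week 12 against the other fed arrays and at 0.64 for those against week 0. Without a filter 2433 genes were apart (1044 higher, 1389 lower), 1190 displaced, the distance 0.368 and 3353 genes 2-fold away. With a filter at the 75th percentile 223 were apart (69 and 154), 139 displaced (29.5% at or past week 0), 217 genes 2-fold away and 2 passed in D2. At a 3-fold threshold 171 were apart (23 and 148) and 107 displaced (17.8% at or past week 0). Median centring passed 18 genes in D2, averaging probe sets 3, and the 4 D2 arrays alone 36, Sult3a1 among them (adjusted p = 0.0414 in limma, range of its other settings up to 1).

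Leaving out 1 array gave 445 to 787 genes apart, 145 to 230 higher and 300 to 557 lower, 430 to 628 displaced with 19.5% to 29.1% at or past week 0, and 1 to 6 genes passing in D2. Of the 11 genes tested singly in D2, Hmgcs1 kept its call in each alternative run, and the 6 others that passed lost it in 29 of their fits, with no change of direction. Of 1062 values of single genes under alternatives, 21 moved by more than the spread of the other fed arrays, and of 382 list medians 32 did. No paired analysis was possible because the labels number no replicates and each strain has 1 array a week. Dim genes limit the rest: near background, differences have little meaning in size.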

Other observations

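Genes of fat use and storage differed among themselves in the C57BL/6J week 12 array. Of 25 genes that burn fatty acids or answer PPAR-alpha, 8 lay above all other fed arrays and none below (28.1% and 27.3% of all genes did), 2 were apart (none without week 4 and 6 without week 21), and the median difference was 0.22. The 2 were Ppara, the nuclear receptor of fat oxidation, at 9.74, 9.21, 9.08, 10.44 and 9.76 at weeks 0, 1, 4, 12 and 21, and Vnn1, a pantetheinase and target of that receptor, at 10.18, 9.07, 8.82, 10.25 and 9.78. Pdk4, the kinase that spares glucose during fasting, was at 9.42, 6.38, 4.79, 6.97 and 6.88, so 72.1% of its displacement remained. Fgf21, a secreted growth factor, was at 6.29, 4.75, 3.79, 4.02 and 5.28, and 135% of its displacement remained. Within this list week 12 thus lay nearer to week 0 than the other fed arrays for some members and further from it for others.

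Of 12 lipid droplet genes, 4 lay above all other fed arrays and 2 below, against 28.1% and 27.3% of all genes. The members Fitm1 (difference 1.56) and G0s2 (1.43) were apart and higher, and Fabp4 (-0.94) was among those below. Lpin1, Igfbp1 and Atf3, given next, belong to other lists. Lpin1, a phosphatidate phosphatase, was at 11.17, 9.02, 9.64, 11.02 and 10.27, and G0s2, an inhibitor of fat breakdown, at 10.64, 8.65, 7.89, 10.04 and 9.32. For both, week 12 was the highest fed array. Igfbp1, an insulin-repressed secreted protein, was at 11.96, 10.72, 10.91, 11.54 and 10.32, and 32.5% of its displacement remained. Atf3, a stress-induced repressor, was at 4.60, 6.44, 6.30, 4.96 and 5.37, below all other fed arrays at week 12. Plasma cell transcripts differed in order, with Ighm, the IgM heavy chain, at 4.82, 5.05, 6.70, 5.51 and 8.29.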
